A study of Mus musculus with 30 samples.

Results

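Bone marrow of 3 mice labelled as having acute myeloid leukaemia (AML), in the libraries AML 4, AML 5 and AML 6, was set beside that of 6 mice with myelodysplastic syndrome (MDS). The 3 are the AML libraries whose value for Tcf7 was at least 200. Tcf7 encodes a transcription factor that sets up the T cell program in thymic progenitors. It stood at 1069.7, 1207 and 496 in AML 4, 5 and 6, 23.2, 11.7 and 1.10 in AML 1, 2 and 3, and 12.97 to 22.1 with a median of 20.6 in MDS, so the nearest libraries on either side of the limit were at 496 and 23.2. They are 3 of 30 libraries in the series and 3 of the 6 AML libraries. No label calls these animals T lineage, and Tcf7, which chose them, is not a result.

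All 12 mice carried C57BL/6 bone marrow with 1 copy of Egr1 lost (Egr1+/-) and 1 allele of Apc deleted (Apc del/+), transplanted into wild type recipients. The AML marrow had in addition a short hairpin RNA against Trp53, and the MDS marrow a hairpin against luciferase as a control. ENU, an alkylating mutagen, was given to donor and recipient in AML 1, AML 4, AML 5 and all MDS mice, to the recipient alone in AML 6, and to neither in AML 2 and AML 3. AML 4 to 6 thus share the Trp53 hairpin and some form of ENU exposure, as does AML 1. Each library is whole marrow of 1 animal, so leukaemic cells and what remained of normal marrow were measured together. The LSK and stromal cell libraries of the series are not used here.

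T cells arise from marrow progenitors that reach the thymus, where Notch signals turn on Tcf7 and Gata3, and then Bcl11b commits the cell to the lineage. Committed thymocytes cut and join their receptor genes with the Rag enzymes and the polymerase encoded by Dntt. They display the receptor with the CD3 chains, and signal through the kinases Lck and Zap70 and the adaptor Lat. In human T cell leukaemia, an early precursor form keeps genes of stem and myeloid progenitors, while later forms resemble cortical or mature thymocytes.

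The values are a normalised signal per gene, proportional to reads per library for 1 gene, and are not corrected for gene length. Differences are on the scale of log2(value + 1) and are always AML minus MDS. Between 17341986 and 21698808 reads were recovered per library, and 11275 genes were measured. AML 4 to 6 were chosen by a measured value, so every difference between them and MDS is a description without a test. Across genes, AML 1 correlated with the MDS libraries at a mean r of 0.962, AML 4, 5 and 6 at 0.869, 0.849 and 0.843, AML 2 at 0.887 and AML 3 at 0.635. AML 3 stood apart from every other marrow library, and its B cell list of 18 genes summed to 4003 against 898 to 1729 in MDS. Of the 18, 11 lay above every MDS library in AML 3 (against 41.9% of all genes). Another 6 lay below (against 4454 of 11275 genes). Trp53 itself was 26.3, 26.97 and 50.2 in AML 4, 5 and 6, 58.0, 23.0 and 33.4 in AML 1, 2 and 3, and 43.2 to 97.9 with a median of 64.8 in MDS. AML 4 and AML 5 lay below every MDS library and AML 6 within their range. Over all 6 AML libraries the difference was -0.90 ± 0.28 (SE), which did not pass (limma, adjusted p = 0.0774; 0.0216 to 0.143 over the fits that left out 1 library each). Apc was 125, 122 and 141 in AML 4, 5 and 6 against 82.2 to 117 in MDS, and Egr1 was 340.2, 190.1 and 909.6 against 135 to 597.

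A set of T lineage genes was high in all 3 libraries. Themis, an adaptor of T cell receptor signalling in thymocytes, was 77.6, 169 and 141 in AML 4, 5 and 6, 1.31, 1.53 and 0.0957 in AML 1, 2 and 3, and 1.11 to 2.94 with a median of 2.03 in MDS. Tox, a nuclear factor of T cell development, was 77.4, 65.3 and 117 in AML 4, 5 and 6, 1.64, 1.89 and 1.77 in AML 1, 2 and 3, and 0.795 to 4.25 with a median of 2.53 in MDS. Every one of AML 4 to 6 thus lay many times above the highest MDS library for both genes, and the other 3 AML libraries lay within or below the MDS range. Bcl11b, the commitment factor, had values of 155, 213 and 73.8 in AML 4, 5 and 6, 3.44, 3.998 and 0.383 in AML 1, 2 and 3, and 3.45 to 6.98 with a median of 5.45 in MDS. Gata3, which acts before Bcl11b, had 95.7, 98.8 and 51.1 in AML 4, 5 and 6, 3.77, 2.83 and 21.6 in AML 1, 2 and 3, and 2.01 to 4.56 with a median of 3.16 in MDS. AML 3 also stood above MDS for Gata3, at a level below that of AML 4 to 6. In bulk marrow, more cells of a type and more RNA per cell cannot be told apart.

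**Figure D1:**
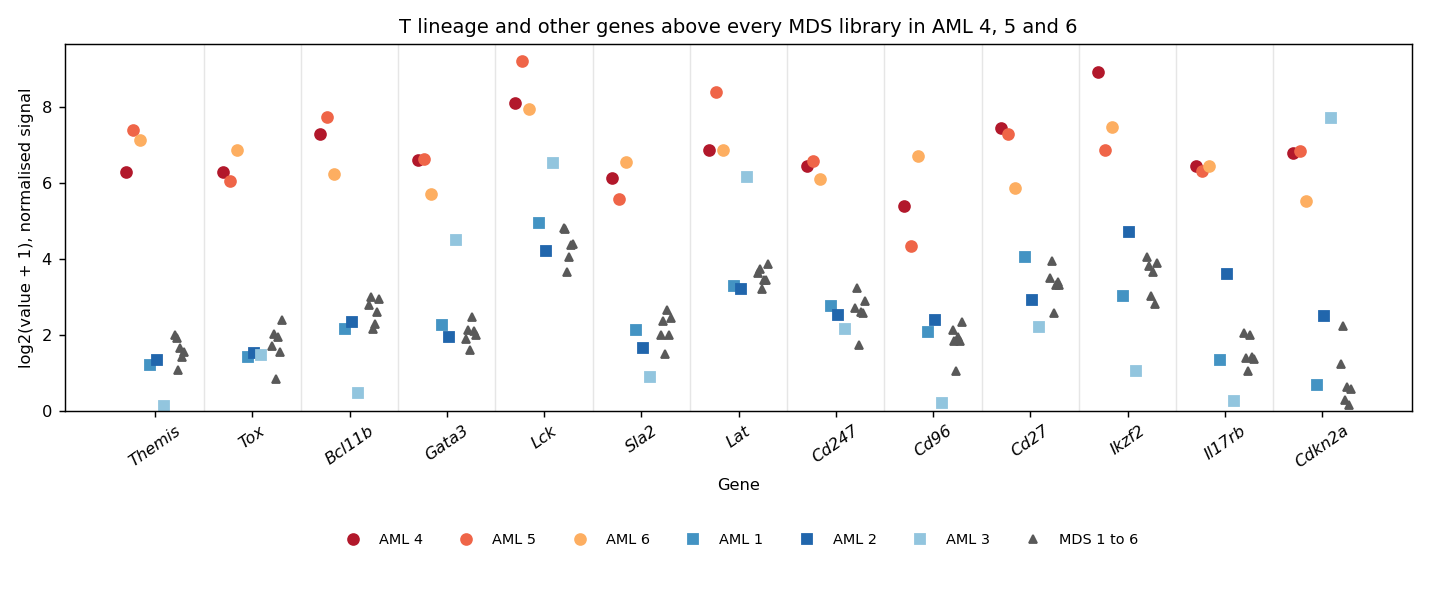
Values of 13 genes in each marrow library, as log2(value + 1) of the normalised signal. Circles are AML 4, 5 and 6, squares AML 1, 2 and 3, and triangles the 6 MDS libraries. The circles stand above all triangles for every gene shown, and AML 3 is also above all triangles for Lck, Lat, Gata3 and Cdkn2a.

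Some genes of the receptor complex and its signalling followed the same pattern, while others, such as Cd3e given below, were not raised in AML 6. Lck, the kinase that starts receptor signalling, was 274, 592 and 246 in AML 4, 5 and 6, 29.6, 17.5 and 91.6 in AML 1, 2 and 3, and 11.5 to 26.9 with a median of 19.9 in MDS. Lat, the adaptor that gathers the signalling complex, was 117, 336 and 115, against 8.69, 8.18 and 70.1 in AML 1, 2 and 3 and 8.16 to 13.6 with a median of 10.7 in MDS. AML 3 was the only one of AML 1 to 3 well above the MDS libraries for these 2 genes, with 91.6 for Lck and 70.1 for Lat. Cd247, the zeta chain of the receptor complex, was 86.9, 95.5 and 68.4 in AML 4, 5 and 6 and 2.33 to 8.34 in MDS. Sla2, an adaptor that lowers receptor levels, was 69.6, 46.6 and 93.1 against 1.80 to 5.27 in MDS. Among surface receptors, Cd96 was 41.4, 19.4 and 104 against 1.06 to 4.05 in MDS, and Cd27, a costimulatory receptor, was 173, 157 and 57.5 against 4.93 to 14.4. Within AML 4 to 6, Cd96 was highest in AML 6 and Cd27 lowest there, so the 3 libraries do not share 1 order across these genes.

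The promoter windows below are shown because Bcl11b, Lck and Cd96 lay above MDS in all 3 libraries. They are RefSeq sequences of build GRCm38.p6, each 250 bases before and 50 after a transcription start, and Lck has a window for each of its 2 starts. Capitals mark CTTTGA or CTTTGT, the core letters bound by TCF and LEF factors, and TGTGGT, the core letters bound by RUNX factors, each on either strand.
Bcl11b, chr12:108003365-108003664, minus strand: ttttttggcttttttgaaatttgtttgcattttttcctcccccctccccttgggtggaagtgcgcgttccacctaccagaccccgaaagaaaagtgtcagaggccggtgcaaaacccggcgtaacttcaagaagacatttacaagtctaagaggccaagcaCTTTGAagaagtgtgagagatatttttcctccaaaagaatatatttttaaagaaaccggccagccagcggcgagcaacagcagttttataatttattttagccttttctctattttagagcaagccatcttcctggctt
Lck, chr4:129573592-129573891, minus strand: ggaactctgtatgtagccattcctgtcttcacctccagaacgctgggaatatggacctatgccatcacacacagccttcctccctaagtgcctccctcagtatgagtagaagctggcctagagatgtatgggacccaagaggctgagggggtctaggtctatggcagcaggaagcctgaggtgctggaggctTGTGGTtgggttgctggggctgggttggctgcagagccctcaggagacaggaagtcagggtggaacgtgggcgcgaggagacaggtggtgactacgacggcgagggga
Lck, chr4:129558323-129558622, minus strand: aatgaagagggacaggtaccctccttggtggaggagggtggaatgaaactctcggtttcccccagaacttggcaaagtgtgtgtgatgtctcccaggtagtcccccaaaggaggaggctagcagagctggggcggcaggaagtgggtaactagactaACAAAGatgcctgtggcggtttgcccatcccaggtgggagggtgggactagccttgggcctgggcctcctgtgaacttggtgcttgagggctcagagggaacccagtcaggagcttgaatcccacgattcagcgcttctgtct
Cd96, chr16:46120199-46120498, minus strand: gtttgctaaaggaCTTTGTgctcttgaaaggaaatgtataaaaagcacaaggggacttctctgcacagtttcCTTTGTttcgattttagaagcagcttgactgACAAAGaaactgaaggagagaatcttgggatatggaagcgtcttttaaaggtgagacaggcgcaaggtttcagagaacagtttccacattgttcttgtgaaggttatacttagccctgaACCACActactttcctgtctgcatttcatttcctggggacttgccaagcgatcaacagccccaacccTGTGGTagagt
The first Lck window is the start farther from the coding sequence, which mature T cells use, and the second is the nearer start, used by early thymocytes. The Cd96 window held 3 TCF and LEF matches and 2 RUNX matches. The nearer Lck window and the Bcl11b window held 1 TCF and LEF match each, and the farther Lck window 1 RUNX match. Of the 23 T lineage genes above every MDS library in AML 4 to 6, 18 had a promoter window, 25 windows in all, some of which overlap. Of these, 13 (52.0%) held a TCF and LEF match, against 31.2% of 32851 mouse promoter windows, and 7 (28.0%) a RUNX match, against 16.8%. GATAA, the core letters of GATA sites, was in 2 of the 25 (8.0%), against 25.4%. A match is a run of letters and does not show binding. The genes were high in libraries chosen by Tcf7, itself a TCF gene, and no test was made, so nothing is read from these shares. Repeated starts of a gene were counted once for the T lineage genes, a step not made for all mouse promoter windows.

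Over the 4 T lineage lists, 76 of 87 genes were in the table, and 23 of them lay above every MDS library in all of AML 4, 5 and 6. For all genes that share was 18.0%, and since these libraries were chosen for a T lineage gene nothing is read from the contrast. Of the 23, 11 were also above MDS in AML 3, 4 in AML 1 and 3 in AML 2, and 9 in none of those. By library, 55 of the 76 genes lay above the highest MDS value in AML 4 (72.4%, against 36.2% of all genes), 51 in AML 5 (67.1%, against 36.3%) and 33 in AML 6 (43.4%, against 34.8%). In AML 1, 2 and 3 the counts were 19 (25.0%, against 22.1%), 18 (23.7%, against 31.6%) and 26 (34.2%, against 41.9%). Receptor complex and signalling genes had a median difference of 2.72, with 11 of 22 above in all 3 and none below, while the median over all genes was 0.05. For surface receptors the median was 1.71 with 5 of 24 above and 0 below. For thymocyte stage genes it was 1.68 with 2 of 12 above and 1 below. For transcription factors it was 1.20 with 6 of 24 above and 2 below. Over all genes 18.0% lay above and 15.3% below in all 3. The share above for surface receptors and thymocyte stage genes was thus close to that of all genes. Without AML 4 the surface receptor median was 0.69, and without AML 5 the thymocyte stage median was 1.01. In AML 6 alone the surface receptor list lay at 0.14 and the transcription factor list at -0.02. Trac, Trbc1, Trbc2, Rag2, Ptcra and Notch3 were not analysed here.

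Beyond that shared set, the 3 libraries differed in the genes that mark T cell stages. AML 4 and AML 5 had the CD3 chains and AML 6 did not. Cd3e was 258, 947 and 5.52 in AML 4, 5 and 6 and 4.98 to 12.1 with a median of 9.20 in MDS. Cd3d was 260.2, 385 and 4.50 against 4.66 to 16.3 in MDS, and Cd3g 244, 372 and 4.68 against 1.27 to 9.61. AML 4 and AML 5 stood far above MDS for all 3 chains, whereas AML 6 stood within the MDS range for Cd3e and Cd3g and below its lowest value for Cd3d. Zap70, the kinase that binds the phosphorylated chains, was 189, 214 and 9.27 in AML 4, 5 and 6, 9.89, 4.81 and 0.765 in AML 1, 2 and 3, and 2.76 to 7.69 in MDS, so AML 6 was just above the MDS range. Cd4 was 8.21, 6.47 and 6.16 against 4.24 to 11.3 in MDS, and Cd8a 42.8, 6.47 and 6.12 against 2.76 to 10.3. Set against T lineage markers, AML 4 and AML 5 thus held receptor chains and lineage factors, while AML 6 held Themis, Tox, Bcl11b, Gata3, Lck, Lat and Cd247 without raised Cd3d, Cd3e or Cd3g.

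Among AML 4 to 6, several genes of lymphoid surface receptors and effectors were highest in AML 4. Ccr9, a chemokine receptor of thymocytes and gut T cells, was 598, 15.2 and 6.16 in AML 4, 5 and 6 and 2.23 to 8.29 in MDS. Cd28, the main costimulatory receptor, was 458, 214 and 9.41 against 8.48 to 18.1 in MDS, high in AML 4 and AML 5. Il7r, the receptor for the survival cytokine of lymphocytes, was 632, 20.1 and 76.9 in AML 4, 5 and 6, 8.14, 9.43 and 645 in AML 1, 2 and 3, and 16.8 to 32.6 in MDS. Icos and Cd226, both costimulatory receptors, were 152 and 219 in AML 4, against at most 9.24 and 3.11 in AML 5 and AML 6. Gzma, a cytotoxic granule protease, was 237, 86.5 and 5.52 in AML 4, 5 and 6 and 0.424 to 4.08 in MDS. The 17 measured NK and cytotoxic genes summed to 585, 238 and 415 in AML 4, 5 and 6, against 331 to 544 in MDS. Of the 17, 1 (Gzma) lay above MDS in all 3 (against 18.0% of all genes) and 0 below (15.3%). The NK receptor gene Ncr1 was 0.38, 0.759 and 1.99 against 0.159 to 5.21 in MDS, and Eomes, an NK cell factor, 2.52, 1.74 and 2.09 against 1.38 to 5.21. The part of NK cells in the Gzma values was not tested. Zbtb16, a factor of innate-like T cells, was 236, 9.38 and 234 against 7.63 to 37.1, high in AML 4 and AML 6.

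Genes of receptor recombination and some Notch genes were high in AML 5. Rag1, which cuts the receptor genes, was 1.09, 586 and 2.32 in AML 4, 5 and 6, 0.328, 3.23 and 44.5 in AML 1, 2 and 3, and 0.0494 to 2.04 in MDS. Dntt was 0.475, 527 and 41.2 in AML 4, 5 and 6, 5.63, 1.03 and 767 in AML 1, 2 and 3, and 1.59 to 13.3 in MDS. Both genes were thus high in AML 5 and in AML 3. AML 6 lay above the MDS range for Dntt and just above it for Rag1, and AML 4 lay below the MDS range for Dntt. Notch1 was 159.7, 1611 and 191 in AML 4, 5 and 6 and 188 to 335 in MDS. Its target Hes1 was 2.66, 145 and 1.95 against 0.742 to 2.21, and its target Dtx1 1.95, 150.1 and 1.34 against 2.58 to 6.30. AML 5 alone of the 3 was high for Notch1 and Dtx1, while AML 4 lay below the MDS range for both. Of the 17 measured Notch genes, 9 lay above MDS in AML 5 (against 36.3% of all genes) and the other 8 below (31.7%). Over AML 4 to 6 the list had a median difference of 0.41, which was 1.01 without AML 4 and -0.21 without AML 5. Il2ra, which marks thymocytes before receptor selection, was 0.475, 28.0 and 24.5 against 0.689 to 3.02, high in AML 5 and AML 6.

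Some single genes of progenitor cells were high in AML 6, though their list as a whole was not. Of the 19 measured stem and progenitor genes, 6 lay above the highest MDS value in AML 6 (against 34.8% of all genes) and 9 below the lowest (31.7%), with a list median of -0.18. Kit, the stem cell factor receptor, was 41.0, 54.1 and 375 in AML 4, 5 and 6, 46.2, 81.6 and 217 in AML 1, 2 and 3, and 68.8 to 82.1 in MDS. Gata2, a stem cell and mast cell factor, was 10.3, 17.6 and 177 against 15.2 to 23.9 in MDS. Both were above MDS in AML 6 and, for Kit, below it in AML 4 and AML 5. Itga2b, an integrin of megakaryocytes and early progenitors, was 19.1, 62.4 and 397 against 33.3 to 58.7, and Angpt1, a ligand that keeps stem cells quiet, 5.79, 17.4 and 348 against 4.24 to 11.8. Mycn was 5.08, 2.37 and 61.3 in AML 4, 5 and 6, 0.437, 0.27 and 81.0 in AML 1, 2 and 3, and 0.758 to 2.24 in MDS. Mecom, a stem cell gene activated in some human myeloid leukaemias, was 0.95, 46.4 and 69.1 in AML 4, 5 and 6, 1.15, 1022 and 0.239 in AML 1, 2 and 3, and 0.742 to 1.98 in MDS. Its highest value was in AML 2, and AML 4 lay within the MDS range. Over AML 4 to 6 the list had a median difference of -0.36 (-0.21 without AML 4, and -0.63 without AML 5 or without AML 6), with 1 above MDS (against 18.0% of all genes) and 7 below (15.3%) in all 3. Spi1, the myeloid factor that T cell commitment turns off, was 95.9, 120.3 and 119 against 244 to 529 in MDS, below in all 3.

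**Figure D2:**
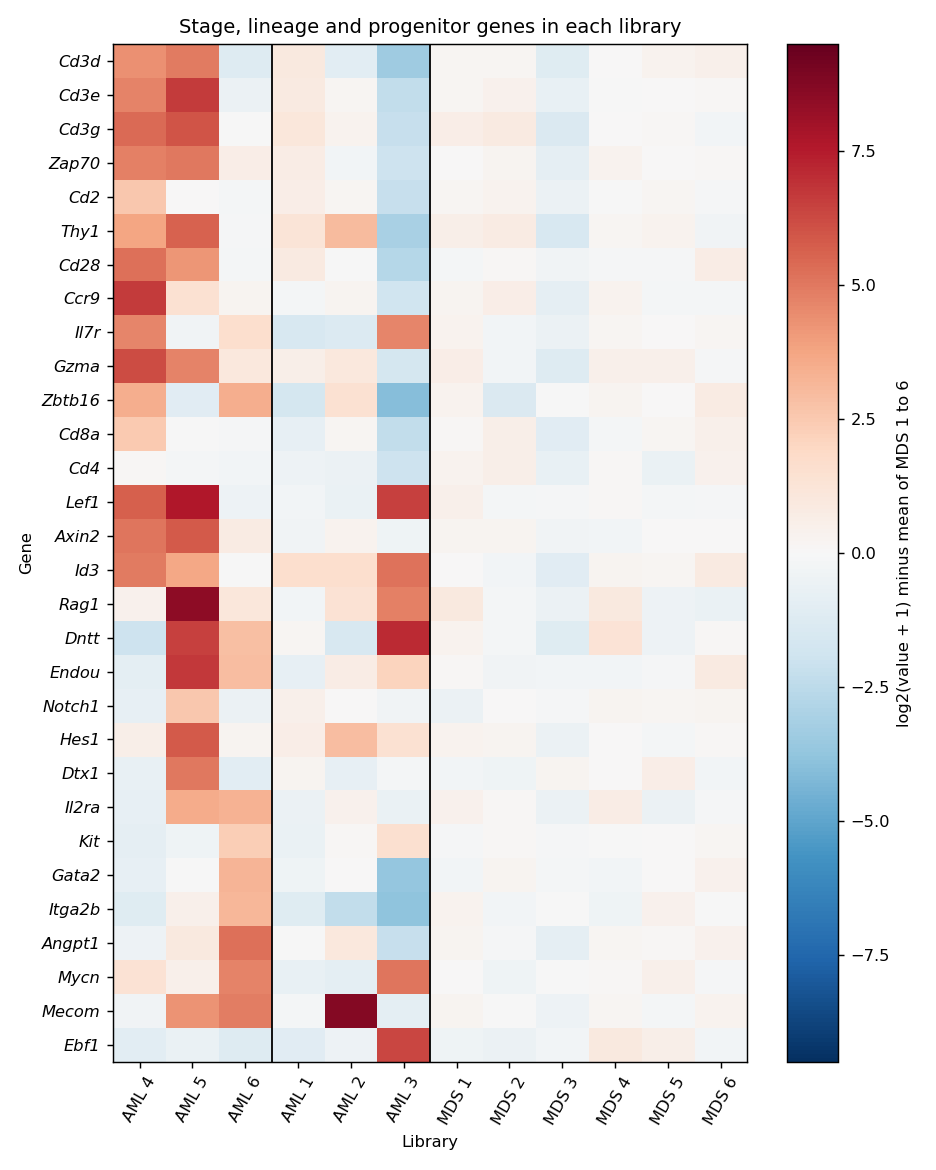
Each cell is log2(value + 1) of a gene in 1 library minus the mean of the 6 MDS libraries, from blue (lower) to red (higher). Columns are AML 4 to 6, then AML 1 to 3, then MDS 1 to 6. The CD3 genes are red in AML 4 and AML 5 and pale in AML 6, Rag1, Dntt and Hes1 are red in AML 5, and Gata2, Itga2b and Angpt1 are red in AML 6.

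Wnt genes were unevenly placed among AML 4 to 6. Lef1, which works with Tcf7 in thymocytes, was 149, 595 and 1.11 in AML 4, 5 and 6, 1.53, 0.899 and 269 in AML 1, 2 and 3, and 1.62 to 3.17 in MDS. Axin2, a feedback inhibitor induced by Wnt signals, was 105, 174 and 4.50 in AML 4, 5 and 6, 1.47, 2.92 and 1.34 in AML 1, 2 and 3, and 1.54 to 2.72 in MDS. AML 6 was below the MDS range for Lef1 and slightly above it for Axin2. Znrf3, another feedback inhibitor, was 37.7, 48.9 and 26.2 against 6.22 to 8.43, above in all 3. Of the 15 measured Wnt genes, 5 lay above (against 18.0% of all genes) and 0 below (15.3%) MDS in all of AML 4 to 6. Their median difference was 0.42, or 0.84 without AML 4 and 0.26 without AML 5. All mice carried the same Apc allele.

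Myc and most of the ribosome biogenesis genes lay above MDS in AML 4 to 6. Myc, a driver of cell growth and a Notch target in thymocytes, was 292, 177 and 150.3 in AML 4, 5 and 6, 40.4, 83.1 and 247 in AML 1, 2 and 3, and 48.9 to 68.2 with a median of 64.1 in MDS. AML 3 stood with AML 4 to 6, and AML 1 below every MDS library. Of 22 ribosome biogenesis and Myc-linked genes, 15 lay above (against 18.0% of all genes) and 1 below (15.3%) MDS in all of AML 4 to 6, with a median difference of 0.84. The list median was highest in AML 3, at 1.77, against 1.18, 0.78 and 0.37 in AML 4, 5 and 6. It was 0.09 in AML 1 and -0.12 in AML 2. Cad, which starts pyrimidine synthesis, was 488, 232 and 233 against 79.2 to 137, and Nop58, a nucleolar protein, 273, 250.3 and 157 against 82.4 to 119.8. The median for DNA replication genes was 0.25 over 35 genes (0.04 without AML 4, 0.41 without AML 6), with 4 above and 1 below. For mitosis genes it was -0.46 over 24 genes (-0.78 without AML 4, -0.22 without AML 6, -0.16 with equal totals), with 0 above and 3 below. Over all genes 18.0% lay above and 15.3% below, larger shares than in either list. By library, the mitosis medians were 0.02, -0.54 and -0.99 in AML 4, 5 and 6. Mki67, a proliferation marker, was 1576, 1089 and 887 against 1512 to 4569.6 in MDS.

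Genes linked to human T cell leukaemia were mixed, with a median difference of 0.14 over 23 measured genes, 6 above (against 18.0% of all genes) and 6 below (15.3%) MDS in all of AML 4 to 6. The median was 0.08 without AML 5 and 0.23 without AML 6. Cdkn2a, the tumour suppressor locus often deleted in that disease, was 109, 114 and 44.8 in AML 4, 5 and 6, 0.601, 4.63 and 209 in AML 1, 2 and 3, and 0.107 to 3.69 with a median of 0.522 in MDS. It lies on chromosome 4 at 89274471 to 89294653 in mm10. AML 3 held its highest value and AML 1 lay in the MDS range. Its ARF product stabilises p53, and the 25 measured p53 target genes had a median difference of -0.06, or 0.24 with every library scaled to the same total, with 0 above and 2 below. Tal1, an oncogene of T cell leukaemia that erythroid cells also need, was 139, 40.8 and 75.5 against 147 to 606 in MDS, lower in all 3. Lyl1 was 55.4, 62.7 and 218 against 78.2 to 159, and Hhex 27.6, 22.7 and 98.4 against 48.6 to 67.5, both above MDS in AML 6 and below it in AML 4 and AML 5. Of the Bcl2 family, Bcl2l1 was 126, 52.8 and 20.6 against 156 to 500.1, Mcl1 338, 365 and 459 against 722 to 1366, and the 13 measured members had a median of -0.14, or 0.16 with equal totals.

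Other genes with the largest differences included Il17rb, a receptor for an IL-17 family cytokine, at 86.5, 79.0 and 86.7 in AML 4, 5 and 6, 1.53, 11.1 and 0.191 in AML 1, 2 and 3, and 1.06 to 3.11 in MDS. Ikzf2, which encodes the lymphoid factor Helios, was 486, 116 and 178 against 6.03 to 15.5 in MDS. Ephb6, a receptor without kinase activity, was 49.6, 258 and 13.3 against 0.907 to 1.81, and Ptpn14, a phosphatase, 5.60, 856 and 99.8 in AML 4, 5 and 6, 1.26, 1.21 and 237 in AML 1, 2 and 3, and 1.87 to 4.08 in MDS. Il17rb was nearly even across AML 4 to 6, whereas Ptpn14 spanned a wide range in which AML 4 stood just above MDS.

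Erythroid and late neutrophil genes were lower in AML 4 to 6, to unequal degrees. Erythroid genes had a median difference of -2.76 over 20 genes (-1.65 without AML 6), with 12 below MDS in all 3, against 15.3% of all genes. Slc4a1, the red cell anion exchanger, was 2457, 551 and 75.6 in AML 4, 5 and 6, 1400.4, 279 and 6.12 in AML 1, 2 and 3, and 3867 to 12306 with a median of 5170.3 in MDS. Alas2, the first enzyme of red cell haem synthesis, was 1198, 344 and 23.4 in AML 4, 5 and 6, 809, 129.9 and 8.08 in AML 1, 2 and 3, and 1203 to 4314 with a median of 2036 in MDS. AML 6 was lowest and AML 4 nearest to MDS for both, and all 6 AML libraries lay below MDS. The whole list summed to 8072, 2117 and 966 in AML 4, 5 and 6, against 9970 to 36118 in MDS. The erythroid median of AML 1 to 3 was -4.28.

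Late neutrophil genes had a median difference of -2.31, and 20 of 23 lay below MDS in all of AML 4 to 6, against 15.3% of all genes. The late neutrophil median of AML 1 to 3 was -2.66. By library it was 0.74, -1.62 and -7.05 in AML 1, 2 and 3. S100a8, a calcium-binding protein of neutrophils, was 2486, 4327 and 1134 in AML 4, 5 and 6, 21777, 3854 and 72.8 in AML 1, 2 and 3, and 10987 to 17626 with a median of 11992 in MDS. Ltf, the granule protein lactoferrin, was 1915, 3089.6 and 774 in AML 4, 5 and 6, 13374, 872 and 53.4 in AML 1, 2 and 3, and 4223 to 9050.4 with a median of 6928 in MDS. AML 1 stood above every MDS library for both and AML 2 and AML 3 below. Primary granule genes, made earlier in neutrophil development, had a smaller median difference of -1.10, with 3 of 13 below in all 3, against 15.3% of all genes. Their median in AML 1 to 3 was -1.72. By library the list lay at 0.06, 0.07 and -5.99 in AML 1, 2 and 3, so it was low in AML 3 alone of these. It lay at -1.72, -0.76 and -1.20 in AML 4, 5 and 6. Mpo, myeloperoxidase, was 1171, 3017 and 1827 in AML 4, 5 and 6 and 2013 to 5543 with a median of 4342 in MDS, so AML 5 overlapped with MDS. These myeloid genes were thus still measured at high values in AML 4 to 6.

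Monocyte and macrophage genes had a median difference of -1.04, with 8 of 24 below MDS in all of AML 4 to 6, against 15.3% of all genes. Their median in AML 1 to 3 was -1.39. By library the list lay at 0.11, -0.01 and -3.41 in AML 1, 2 and 3, so it was low in AML 3 alone of these. It lay at -1.38, -1.39 and -0.53 in AML 4, 5 and 6. Csf1r, the macrophage growth factor receptor, was 210.1, 103 and 242 in AML 4, 5 and 6, 444, 1965 and 10.9 in AML 1, 2 and 3, and 229.9 to 424 in MDS, with the highest value in AML 2. B cell genes had a median difference of -0.75, with 6 of 18 below (against 15.3% of all genes) and none above (18.0%) in all 3. They summed to 734, 637 and 546 in AML 4, 5 and 6 against 898 to 1729 in MDS. In AML 1 to 3 the B cell median was 0.49. For MHC class II genes the median was -0.93, with 1 of 10 below every MDS library in AML 4 (against 33.3% of all genes), 9 of 10 in AML 5 (31.7%) and 0 of 10 in AML 6 (31.7%). That median was -0.23 without AML 5 and -1.47 without AML 6, and in AML 1 to 3 it was -1.70. By library the MHC class II median was -0.36, -0.74 and -3.85 in AML 1, 2 and 3. Megakaryocyte genes had a median of 0.48 and dendritic cell genes -0.38, with none of either list beyond MDS in all 3. Without AML 4, 5 or 6 in turn the megakaryocyte median was 0.78, 0.08 and 0.24, and the dendritic cell median was -0.07 without AML 5, -0.76 without AML 6, -0.18 without MDS 2 and -0.58 without MDS 3. Type I interferon genes had a median of 0.04 (-0.09 to 0.35 without 1 library), immediate early genes -0.57, basophil, eosinophil and mast cell genes -0.60, and stromal and endothelial genes -0.21 (-0.33 to 0.10 without 1 library).

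**Figure D3:**
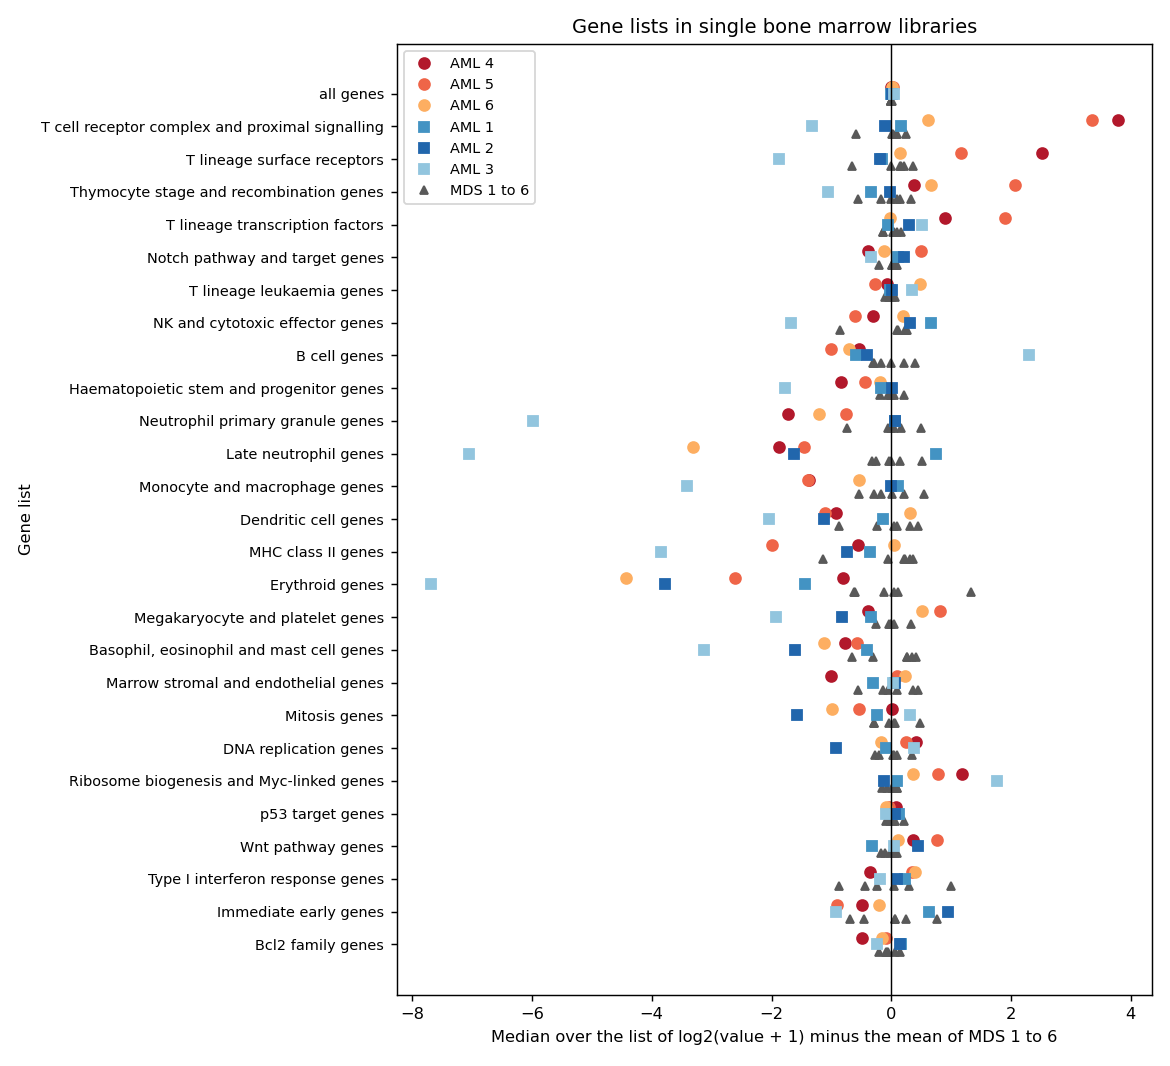
For each gene list, the median over its genes of log2(value + 1) minus the MDS mean, in single libraries. Circles are AML 4 to 6, squares AML 1 to 3 and triangles the 6 MDS libraries, on 1 row per list. In AML 4, 5 and 6 the T cell receptor list lies at 3.79, 3.35 and 0.61, the late neutrophil list at -1.88, -1.45 and -3.31, and the erythroid list at -0.80, -2.61 and -4.43.

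The largest decreases by the naming rule included erythroid genes. Erfe, the erythroblast hormone that suppresses hepcidin, was 32.2, 7.46 and 2.92 in AML 4, 5 and 6, 54.6, 6.92 and 3.11 in AML 1, 2 and 3, and 61.1 to 389.8 with a median of 132 in MDS. Cldn13, an erythroid claudin of mice, was 71.7, 14.8 and 2.503 against 99.9 to 312. Lipg, a lipase first found in endothelium, was 1.57, 30.2 and 6.40 against 101 to 150.1, Saa3, an acute phase protein, 0.902, 0.357 and 2.83 against 17.9 to 67.6, and Lrg1, a glycoprotein of neutrophil granules, 48.9, 87.6 and 36.7 against 289 to 866. In all, 733 of 11275 genes (6.5%) lay above every MDS library by at least 1 in the mean of AML 4 to 6, and 926 (8.21%) lay below. With every library scaled to the same total, which moves the median of all genes difference from 0.05 to 0.34, the counts were 1405 above and 529 below.

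Tests were made between the groups that the labels define, which the measured values did not choose. AML 1 to 6 were set against MDS 1 to 6 to ask what leukaemia with the Trp53 hairpin changed relative to MDS. Of 11273 genes, 361 passed (3.2%; limma, Benjamini-Hochberg adjusted p under 0.05), 112 higher (0.994%) and 249 lower (2.21%), and 3302 had an unadjusted p under 0.05. Among the T lineage lists, 1 gene passed. Il2rg, the common chain of lymphoid cytokine receptors, rose to a mean of 106 ± 32.8 in AML and 41.6 ± 15.7 in MDS (SD, n = 6 each), a difference of 1.35 ± 0.29 (SE, limma adjusted p = 0.0423). Its values were 117, 120.2 and 118 in AML 4, 5 and 6, 60.2, 147 and 73.0 in AML 1, 2 and 3, and 21.04 to 65.2 in MDS, so AML 1 overlapped with MDS.

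For other genes shared by AML 4 to 6, given here, the spread among the 6 AML libraries was wide and limma did not call them. Cdkn2a differed by 4.15 ± 1.06 (difference ± SE, limma adjusted p = 0.052), Lck by 2.48 ± 0.73 (0.0695), Gata3 by 2.57 ± 0.78 (0.0736) and Lat by 2.24 ± 0.78 (0.0979). For Themis the difference was 2.32 ± 1.24 (0.22), for Tox 2.20 ± 1.02 (0.171) and for Bcl11b 1.74 ± 1.14 (0.31). edgeR's quasi-likelihood test on the recovered reads called 448 genes (3.97%), 295 of them higher (2.62%) and 153 lower (1.36%), and 253 genes were called by both tools. It called 7 genes of the T lineage lists: Lck (adjusted p = 0.044), Gata3 (0.044), Id3 (0.044), Il2rg (0.044), Lat (0.0459), Lef1 (0.0459) and Sox4 (0.0459), each higher in AML. Id3 restrains E proteins during thymocyte maturation, and Sox4 is a factor of early lymphoid cells. Id3 was 172, 68.6 and 4.40 in AML 4, 5 and 6, 16.0, 16.2 and 195 in AML 1, 2 and 3, and 1.70 to 9.29 in MDS, and Sox4 15.7, 82.3 and 97.6, 6.77, 8.40 and 242 and 4.03 to 9.83. Both were highest in AML 3.

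Of the other lists, 5 of 20 erythroid genes fell in AML by limma, against 2.21% of all genes. They were Tfrc, the transferrin receptor (-2.03 ± 0.44, adjusted p = 0.0423), Epor, the erythropoietin receptor (-3.02 ± 0.74, 0.0479), Rhag, a Rhesus family membrane protein (-3.83 ± 0.92, 0.0466), Tspo2 (-2.96 ± 0.74, 0.0499) and Tal1 (-2.01 ± 0.50, 0.0499). Epor was 43.5, 12.2 and 8.57 in AML 4, 5 and 6, 28.5, 3.10 and 0.143 in AML 1, 2 and 3, and 47.4 to 146 in MDS, with no overlap. Slc4a1 (-4.43 ± 1.15, 0.0538) and Alas2 (-3.90 ± 1.05, 0.0565) did not pass, nor did S100a8 (-2.66 ± 1.04, 0.123) or any of the 23 late neutrophil genes. Dusp2, a phosphatase that ends MAP kinase signals, rose (2.12 ± 0.49, 0.0435), as did Pecam1, an adhesion molecule of endothelium and leukocytes (1.45 ± 0.33, 0.0435). Vcam1, an adhesion molecule of marrow macrophages (-1.76 ± 0.43, 0.0473), and Rsad2, an antiviral protein (-3.74 ± 0.90, 0.0466), fell. Tfrc was the 1 erythroid gene that edgeR called.

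The genes with the smallest p were changed alike in most AML libraries. Ptpn23, a phosphatase of endosomal sorting, was 84.7, 84.0 and 70.2 in AML 4, 5 and 6, 88.1, 75.7 and 82.6 in AML 1, 2 and 3, and 40.5 to 53.4 in MDS (0.76 ± 0.12, limma adjusted p = 0.0336). Dusp5, a phosphatase of nuclear ERK, was 51.9, 14.1 and 47.4, against 29.2, 31.8 and 22.4 in AML 1, 2 and 3 and 2.81 to 9.55 in MDS (2.05 ± 0.35, 0.0336). Rab11fip3 (1.74 ± 0.31, 0.0336), a vesicle transport protein, Hnrnph1 (0.65 ± 0.12, 0.0376), a splicing factor, and Mef2d (0.90 ± 0.17, 0.0381), a transcription factor, also rose. Gpr146 was 24.5, 22.3 and 32.5 in AML 4, 5 and 6, 28.8, 28.6 and 14.2 in AML 1, 2 and 3, and 53.3 to 84.8 in MDS (-1.47 ± 0.20, 0.0336). Fam213a (-3.52 ± 0.50, 0.0336), Lipg (-4.12 ± 0.78, 0.0381), Erfe (-3.63 ± 0.67, 0.037), the red cell nucleotidase Nt5c3a (-2.33 ± 0.36, 0.0336) and the mitophagy receptor Bnip3l (-1.20 ± 0.19, 0.0336) fell. These calls rest on few libraries. The limma count was 2472 without AML 1, 644 without AML 2, 0 without AML 5, 0 without AML 6, 1 without MDS 4 and 0 without each other MDS library, while 2552 to 4436 genes had an unadjusted p under 0.05 in those fits.

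**Figure D4:**
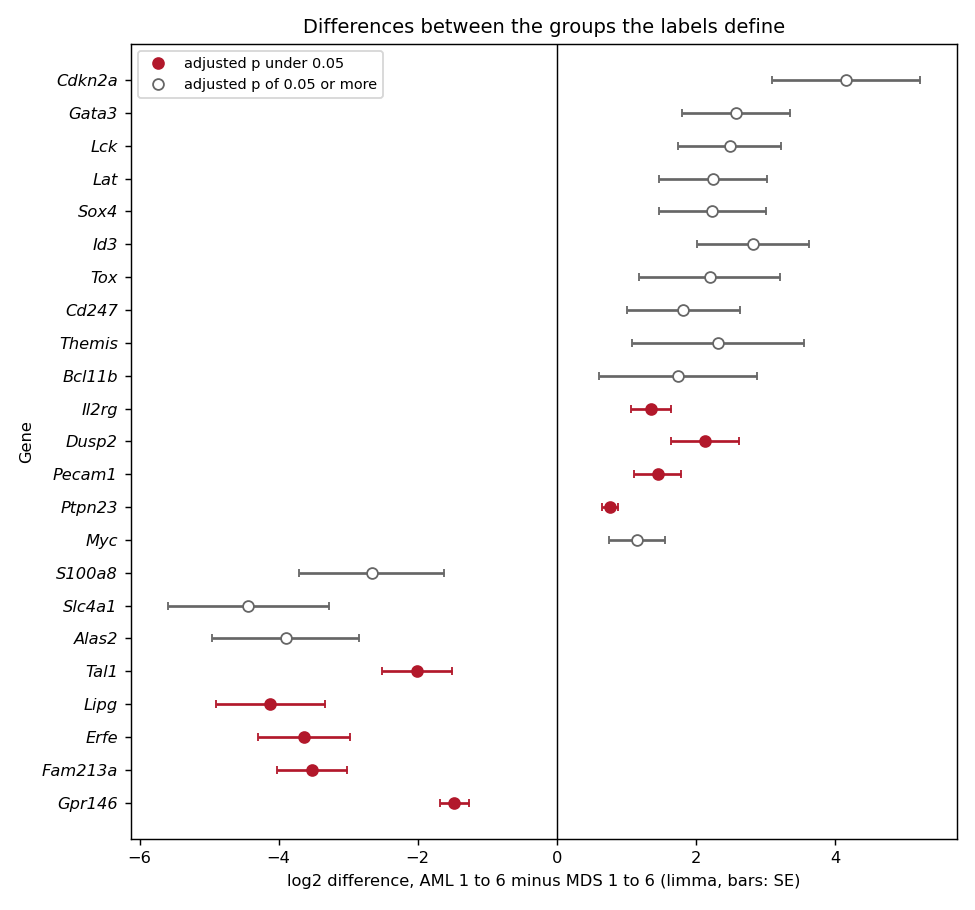
Difference in log2(value + 1) between AML 1 to 6 and MDS 1 to 6 for 23 genes, with the SE from limma as bars. Filled points passed the adjusted threshold and open points did not. T lineage genes such as Lck, Gata3 and Themis are open with wide bars, and Il2rg, Dusp2, Pecam1 and Ptpn23 are filled.

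With the exposure matched, AML 1, AML 4 and AML 5 were set against the 6 MDS libraries, since all of these had ENU in donor and recipient. By limma 0 of 11275 genes passed (0.0%), with 3036 at an unadjusted p under 0.05. edgeR called 23 genes (0.204%), 22 of them higher. Of those 23, 10 were genes of the T lineage lists: Cd3d, Cd3e, Cd3g, Lck, Zap70, Cd27, Cd28, Gata3, Id3 and Lef1. On edgeR's log2 scale of reads, Cd3e differed by 5.47 (adjusted p = 0.0491), Zap70 by 4.49 (0.0491), Cd28 by 4.34 (0.0491) and Axin2, which is on the Wnt list, by 5.39 (0.0491). AML 1 was 16.2 for Cd3e, above the MDS range of 4.98 to 12.1 by little, 9.89 for Zap70, against 2.76 to 7.69, and 1.47 for Axin2, below its range. The highest values of these genes were in AML 4 and AML 5, both of which the Tcf7 limit also selects. Without AML 1, limma called 4219 genes. That fit holds just AML 4 and AML 5 and is a description. Without AML 4 or AML 5, limma called 0 genes, with 1784 and 2109 at an unadjusted p under 0.05.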

How the data were processed

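Whole bone marrow RNA was taken with Trizol and sequenced from Illumina TruSeq Stranded mRNA libraries, per the labels' protocols. The submitters' processing notes name bcl2fastq, FastQC, TopHat, SAMtools, edgeR and mm10, without versions; the counter, the annotation and any low-value filter were not given in the sources used here. Values as deposited are a normalised signal per gene, named as CPM by the authors although they sum to 803746 to 1118648 per library, so they were handled as a signal and not as CPM. Each value is a whole multiple of 1 step per library, within 0.05 of a read, for 99.99 to 100% of values, which gave back 17341986 to 21698808 reads per library. Of 11430 rows, 155 with the same values as another row in all 12 libraries were dropped. The 11275 left, of which 4 names have 2 rows each, are called genes.

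AML 4 to 6 and the gene lists were chosen with earlier results of these data known. AML against MDS, and AML with matched ENU exposure against MDS, were compared by limma 3.58.1 (R 4.3.3; eBayes with trend) on log2(value + 1), for genes that reached 1 in at least 6 libraries (first comparison) or 3 (second), with a Benjamini-Hochberg threshold of 0.05. edgeR 4.0.16 (quasi-likelihood test) on the recovered reads was an alternative. Replicates are labelled as separate mice. Both tools were run on simulated data with the same spread setting for every gene. That setting does not copy the wide differences among the AML libraries, so nothing is read from it for these data. Genes were named by a rule: Tcf7, Trp53, Egr1 and Apc, up to 12 per direction with the largest difference of AML 4 to 6 and no overlap with MDS, up to 8 per direction with the smallest limma p, and up to 6 per list, with every T lineage member open to naming. Icos, Cd226, Ncr1, Eomes, Kit, Lyl1, Hhex, Ltf, Mpo, Csf1r and the limma calls in the lists were named after their values were seen, and some genes the rule names are not reported here. Positions come from the GENCODE annotation of mm10, and promoter windows from RefSeq. Python 3.11.15, pandas 2.3.3 and matplotlib 3.10.9 were used for tables and plots.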

Additional observations from a re-analysis of the deposited data

Results flagged for a closer look

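In 100 groups of 6 libraries (50 genes printed with single values, in AML and in MDS, on the log2 scale), 6 held a library far from the other 5, 3 in AML and 3 in MDS. Chance alone flags about 1 in 20 groups. Notch1 was 1611 in AML 5, far above the other AML libraries, at 159.7 to 379.7. Mpo and Cd4 were lowest in AML 3, at 30.3 and 1.15. Among the MDS libraries, MDS 3 was low for Cd3d (4.66) and Zap70 (2.76), and MDS 1 for Mpo (2013).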

How the results depend on the processing

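The counts of passing genes depended on the processing. For AML against MDS the limma count of 361 (112 higher, 249 lower) became 145 (36 and 109) with a pseudocount of 0.1 and 60 (18 and 42) with equal library totals, and it was 361 without a filter and 372 with median-of-ratios rescaling. edgeR gave 448 (295 and 153). Leaving out 1 library at a time gave 0 to 2472 genes, 0 to 1277 higher and 0 to 1195 lower. With matched exposure the limma count of 0 stayed 0 under every such setting except leaving out single libraries (0 to 4219, 0 to 2201 higher and 0 to 2018 lower), while edgeR called 23 (22 and 1). The replicate block, with the replicate number as a term, gave 141 genes (6 higher and 135 lower) for AML against MDS and 0 with matched exposure. Whether the numbers pair the libraries cannot be decided here, because the wide differences among the AML libraries could hide a pairing. An AML and an MDS library with the same number had deviations that correlated at -0.156 to 0.232. Of the 6 AML libraries, 2 correlated best with their own number. In the description of AML 4 to 6, 1405 genes lay above and 529 below MDS with equal totals, 132 and 176 with a difference of at least 2, and 714 to 999 and 940 to 1163 without 1 library. With equal totals the medians of B cell, p53 target and Bcl2 family genes moved to -0.48, 0.24 and 0.16. Without 1 library the medians ranged from -0.21 to 1.01 for Notch genes, 0.26 to 0.84 for Wnt genes and -0.20 to 0.00 for p53 targets. The median of the receptor complex list was 2.09 to 3.62, and of the erythroid list -3.65 to -1.65. No gene tested by name changed direction under any alternative run, among the 45 tested, and the cause of the changes was not tested. At 17341986 to 21698808 reads per library, 1 read was worth a value of 0.0446 to 0.0566, which sets the precision of genes with low values.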
